A study of Homo sapiens with 12 samples.

Results

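The 6 conventional actin genes were followed through RNA immunoprecipitation sequencing of ADAR3 in the human glioblastoma line U373-MG. They are ACTA1 (ENSG00000143632), ACTB (ENSG00000075624), ACTG1 (ENSG00000184009), ACTA2 (ENSG00000107796), ACTC1 (ENSG00000159251) and ACTG2 (ENSG00000163017), 6 of the 31707 gene IDs that the deposited tables hold. The set was drawn up as a gene family, around ACTA1, which had been seen almost only in pre-immune IP: it was chosen by its reads in these libraries, and the other 5 by family. Its levels are therefore given as a description, with no test. ADAR3 belongs to the adenosine deaminases that act on RNA, binds double-stranded RNA, and has no known editing activity of its own. All 12 libraries came from this line, for which the labels name no treatment or genetic change, crosslinked with ultraviolet light before lysis and sonication. Of these, 4 hold RNA immunoprecipitated (IP) with an antibody to endogenous ADAR3 (ADAR3 IP), 4 hold RNA recovered with serum taken before immunization (pre-immune IP), and 4 hold input RNA. Nothing in the labels says that replicates were separate cultures, so the p-values below rest on a spread that may be technical.

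Actin is the monomer of the thin filaments that shape and move cells. The family is split by tissue: ACTB and ACTG1 encode the cytoplasmic β- and γ-actin of nearly every cell, ACTA1 encodes the skeletal muscle α-actin and ACTC1 the cardiac one, while ACTA2 and ACTG2 encode the smooth muscle forms of vessels and of the gut. The proteins are nearly identical, and their coding sequences are closely alike, so short reads can be shared between members and with processed copies elsewhere in the genome. How the authors' counting treated shared reads, and whether it used the strand where genes overlap, is not given in the sources used here, and each value below carries that uncertainty.

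In RefSeq's annotation of GRCh38.p14, ACTA1 lies at chr1:229431245-229434094, ACTB at chr7:5527148-5530601 and ACTG1 at chr17:81509971-81512799. ACTA2 lies at chr10:88935074-88991337, ACTC1 at chr15:34790230-34795549 and ACTG2 at chr2:73893008-73919865. A feature that the choice of the genes did not use is the CArG box, a DNA sequence of 10 bases bound by serum response factor, the regulator of many actin genes. Windows from 250 bases before to 50 after a RefSeq gene start were searched on both strands. Only exact matches were counted, with CC at one end, GG at the other and only A or T between. ACTB had no window in the table used. The box was found in the 1 window of each of ACTA1, ACTG1 and ACTG2, in 1 of 3 windows of ACTC1 and in 0 of 2 of ACTA2. A box with G or C among its inner bases is missed by this search, so ACTA2 is not shown to lack one. The same search matched 1.29% of all 35116 windows. Since serum response factor was already known to regulate actin genes, the contrast with this share is not counted as support. The matches are shown because they are short sequences that muscle and cytoplasmic members have in common. Each line gives 30 bases from 5′ to 3′ with the box in capitals.
ACTA1: tgcccaacacCCAAATATGGctcgagaagg
ACTC1: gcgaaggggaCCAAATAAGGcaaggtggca
ACTG1: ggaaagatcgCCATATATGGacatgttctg
ACTG2: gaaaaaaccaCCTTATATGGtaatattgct
ACTG2: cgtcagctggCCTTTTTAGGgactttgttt
They stand at chr1:229434172-229434201, chr15:34795639-34795668 and chr17:81512874-81512903, all on the minus strand, and at chr2:73892888-73892917 and chr2:73892925-73892954 on the plus strand. The boxes of ACTA1, ACTC1 and ACTG1 began 97, 109 and 94 bases before the start, and those of ACTG2 110 and 73 bases before it. A match is a description of sequence, and no binding or promoter activity was measured in these libraries.

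Reads assigned to genes numbered 23999234 to 30156884 in the ADAR3 IP libraries, 1875461 to 4946149 in the pre-immune ones and 4873428 to 12772412 in input. Levels are given as CPM, reads scaled to the total assigned to genes in a library, with exact Poisson 95% intervals. The libraries carried no molecular identifiers that the labels mention and were amplified for 15 cycles, so these intervals cover counting error only. A CPM is a share of the RNA sequenced: amounts recovered by the IPs are not compared, and more RNA per cell cannot be told apart from more cells that hold it. Markers of muscle, blood and glia could not be looked up, since no table used here pairs the gene IDs with symbols. The pre-immune replicates spread far more than the ADAR3 IP ones. Among 11112 genes with a mean of at least 50 normalized counts, replicates had a median SD, on the log2(normalized count + 1) scale, of 0.208 in ADAR3 IP and 0.811 with pre-immune serum.

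Skeletal muscle actin, ACTA1, was close to absent from ADAR3 IP and input and present in every pre-immune library. In ADAR3 IP replicates 1 to 4 it stood at 0.449, 0, 0.661 and 0.0417 CPM, from 13, 0, 18 and 1 reads. In pre-immune replicates 1 to 4 it stood at 31.9, 53.6, 14.1 and 28.3 CPM, from 158, 150, 62 and 53 reads. Input replicates 1 to 4 held 0.0783, 0.593, 0 and 0.206 CPM, from 1, 6, 0 and 2 reads. The lowest pre-immune library thus lay above every one of the other 8 libraries, while ADAR3 IP and input overlapped. The 0 reads in ADAR3 IP replicate 2 and in input replicate 3 allow up to 0.0995 and 0.616 CPM, at 3 counts each.

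The group means of ACTA1 were 0.288 ± 0.321 CPM in ADAR3 IP, 32.0 ± 16.4 CPM with pre-immune serum and 0.219 ± 0.263 CPM in input (SD, n = 4 each). Pooled over libraries, ACTA1 took 32 reads in ADAR3 IP, 423 with pre-immune serum and 9 in input. Each sum divided by its group's total gave a level in ADAR3 IP that was 0.00960 of the pre-immune one, with a counting interval of 0.00648 to 0.0138. The pooled level of pre-immune IP over input was 126, with an interval of 65.6 to 277, and that of ADAR3 IP over input 1.21, with an interval of 0.563 to 2.88. The log2 ratio of mean CPM, ADAR3 IP over pre-immune IP, was -6.80, and it became -7.61 without ADAR3 IP replicate 3, which held 18 of the 32 reads of that group. The authors' deposited table gives it a log2 fold change of -6.91. Among pre-immune libraries the highest level was 3.8 times the lowest.

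**Figure D1:**
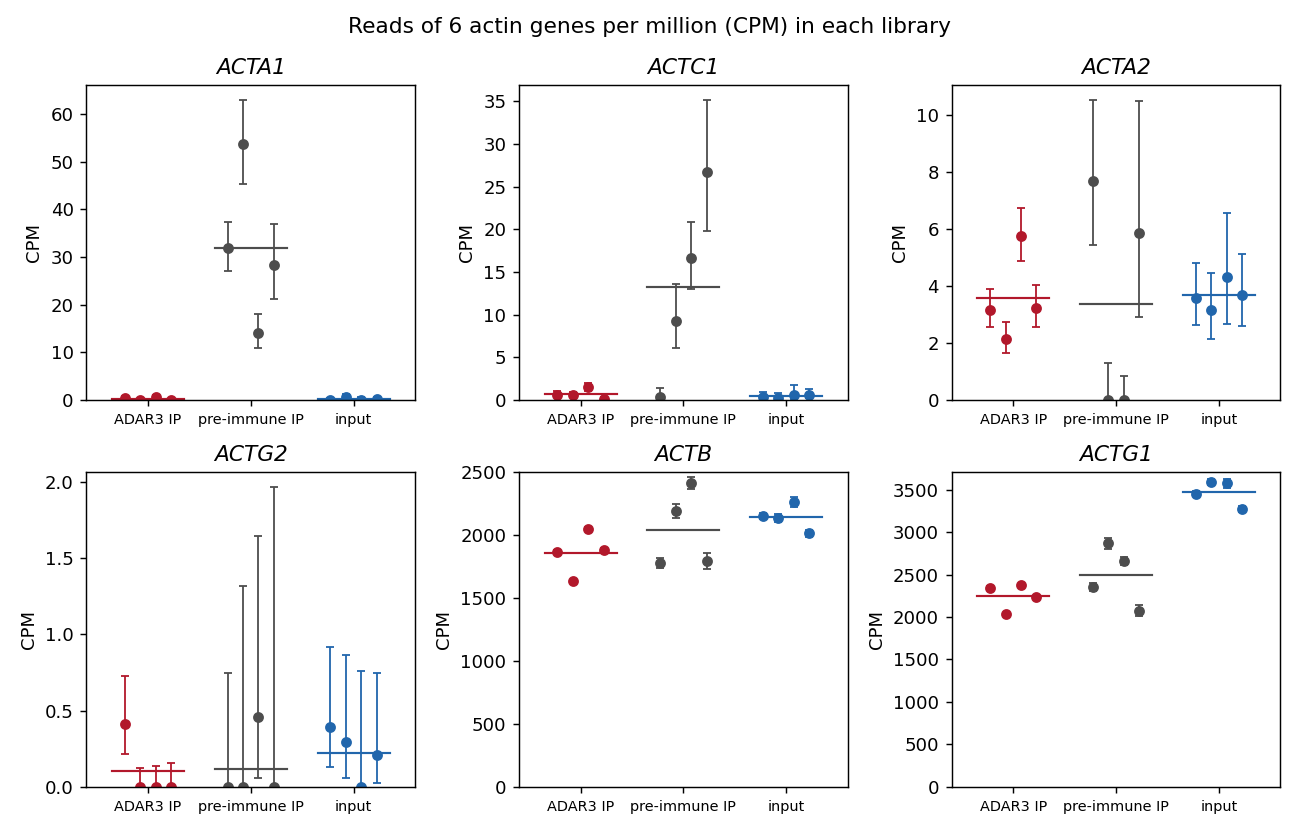
CPM (linear axes starting at 0, a different range in each panel) of the 6 actin genes in the 12 libraries, with ADAR3 IP in red, pre-immune IP in grey and input in blue, and replicates 1 to 4 from left to right. Points are libraries, bars are exact Poisson 95% intervals and horizontal lines are group means. ACTA1 reaches 14.1 to 53.6 CPM with pre-immune serum only, ACTC1 stands above the other groups in 3 of 4 pre-immune libraries, and ACTG1 is highest in input.

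Cardiac muscle actin, ACTC1, was high in 3 of the 4 pre-immune libraries. ADAR3 IP replicates 1 to 4 held 0.656, 0.630, 1.51 and 0.125 CPM, from 19, 19, 41 and 3 reads. Pre-immune replicates 1 to 4 held 0.404, 9.30, 16.6 and 26.7 CPM, from 2, 26, 73 and 50 reads. Input replicates 1 to 4 held 0.391, 0.296, 0.616 and 0.618 CPM, from 5, 3, 3 and 6 reads. Pre-immune replicates 2, 3 and 4 lay above all ADAR3 IP and input libraries, but replicate 1 lay among them, so pre-immune IP was separated from neither of the other groups. The means were 0.729 ± 0.572 CPM in ADAR3 IP, 13.2 ± 11.1 CPM with pre-immune serum and 0.480 ± 0.162 CPM in input (SD, n = 4 each).

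ACTC1 met the minimum for testing, a mean of 50 normalized counts over the 8 IP libraries, only through pre-immune IP, with means of 6.46 normalized counts in ADAR3 IP and 124.6 with pre-immune serum. The values that follow therefore describe the gene and are not counted as support for a difference. Its log2 fold change, ADAR3 IP over pre-immune IP, was -3.40 ± 1.74 (SE) with a 95% interval of -7.22 to 0.43, and did not pass the threshold (adjusted p = 0.342 by limma on log2(normalized count + 1), with Benjamini-Hochberg adjustment over 11112 genes). With no filter on low values limma gave the same -3.40 and an adjusted p of 0.227. Over the 18 alternatives run for it the adjusted p ranged from 0.0011 to 0.590, and only DESeq2 passed, at -4.26 and an adjusted p of 0.0011, where 5.63% of genes were called lower. The authors' deposited table holds the same values for ACTC1, a log2 fold change of -4.26 and an adjusted p of 0.0011, so this is also their call. edgeR on the same recovered reads gave -4.14 and an adjusted p of 0.101. Without pre-immune replicate 1 the limma value was -4.64, with an adjusted p of 0.0927. Without pre-immune replicate 4 the gene was under the minimum.

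The share of ACTA1 among ACTA1 and ACTC1 reads is given as a description, since ACTA1 was chosen on these libraries. ACTA1 made up 98.8%, 85.2%, 45.9% and 51.5% of the reads of the pair in pre-immune replicates 1 to 4, from 160, 176, 135 and 103 reads. The exact binomial 95% intervals were 95.6% to 99.85%, 79.1% to 90.1%, 37.3% to 54.7% and 41.4% to 61.4%. These intervals cover counting error only, on amplified reads, and do not measure the spread between replicates. Pre-immune replicates 1 and 2 held mostly ACTA1 reads, while pre-immune replicates 3 and 4 held similar numbers of both. In ADAR3 IP the share was 40.6%, 0%, 30.5% and 25.0% of only 32, 19, 59 and 4 reads. In input it was 16.7%, 66.7%, 0% and 25.0% of 6, 9, 3 and 8 reads, too few to order. These are shares of reads, not of transcripts, since reads were not divided by transcript length.

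**Figure D2:**
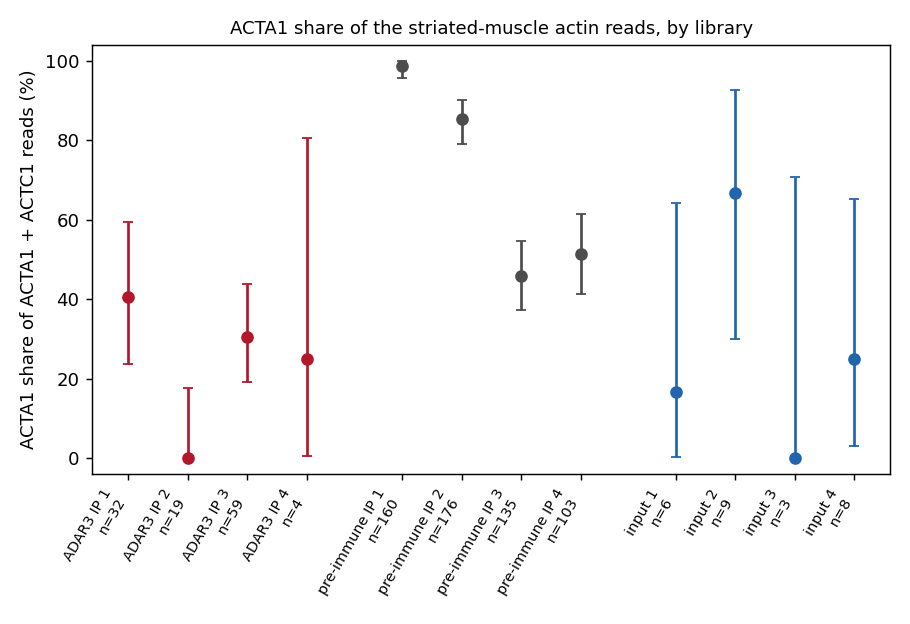
ACTA1 reads as a percentage of ACTA1 plus ACTC1 reads in each library, with ADAR3 IP in red, pre-immune IP in grey and input in blue. Points are libraries, bars are exact binomial 95% intervals and n is the number of reads of the pair. Pre-immune replicates 1 and 2 stand at 98.8% and 85.2%, above replicates 3 and 4 at 45.9% and 51.5%, and the input intervals are wide.

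ACTA1 and ACTC1 together took 0.00405% to 0.0489% of the reads of the 6 actin genes in ADAR3 IP, 0.602% to 1.4% with pre-immune serum and 0.00838% to 0.0156% in input. Even with pre-immune serum the cytoplasmic members held nearly all actin reads, 28880 for ACTB and 35224 for ACTG1. The smooth muscle members held 49 (ACTA2) and 2 (ACTG2) reads there. All 6 genes together took 0.411% ± 0.0322 of library reads in ADAR3 IP, 0.458% ± 0.0622 with pre-immune serum and 0.562% ± 0.024 in input (SD, n = 4 each).

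The smooth muscle members overlapped between every pair of groups. ACTA2, the vascular form, held 3.18, 2.16, 5.76 and 3.25 CPM in ADAR3 IP replicates 1 to 4. Pre-immune replicates 1 to 4 held 7.68, 0, 0 and 5.87 CPM, from 38, 0, 0 and 11 reads. Input replicates 1 to 4 held 3.60, 3.16, 4.31 and 3.71 CPM. The 2 libraries at 0 allow up to 1.07 and 0.683 CPM, below every ADAR3 IP and input library, while the other 2 lay above every ADAR3 IP and input library. For pre-immune replicate 4 the 95% interval, 2.93 to 10.5 CPM, still takes in most of those libraries. The means were 3.59 ± 1.54 CPM in ADAR3 IP, 3.39 ± 3.98 CPM with pre-immune serum and 3.70 ± 0.473 CPM in input (SD, n = 4 each). ACTA2 did not meet the minimum for testing, and edgeR on the recovered reads gave a log2 fold change of 0.07, ADAR3 IP over pre-immune IP, with an adjusted p of 0.993. DESeq2 gave -0.03, with an adjusted p of 0.994. limma gave 1.94 at a minimum of 10, with an adjusted p of 0.544, and 1.94 with no filter, with an adjusted p of 0.513.

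ACTG2, the smooth muscle form of the gut, was at the limit of detection. It had 12 reads in ADAR3 IP, all in replicate 1 (0.414 CPM), 2 reads with pre-immune serum, both in replicate 3 (0.455 CPM), and 5, 3, 0 and 2 reads in input replicates 1 to 4. The ADAR3 IP libraries at 0 allow up to 0.125 CPM and the pre-immune libraries at 0 up to 1.6 CPM, so a difference between the IPs was not detectable at this depth.

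The cytoplasmic actins were abundant in all 3 groups. ACTB held 1869, 1632, 2048 and 1882 CPM in ADAR3 IP replicates 1 to 4, 1777, 2191, 2415 and 1792 CPM in pre-immune replicates 1 to 4, and 2152, 2136, 2263 and 2014 CPM in input replicates 1 to 4. ACTB overlapped between every pair of groups. ACTG1 held 2346, 2032, 2374 and 2234 CPM in ADAR3 IP, 2353, 2867, 2659 and 2075 CPM with pre-immune serum, and 3452, 3592, 3573 and 3268 CPM in input. For ACTG1 the highest library of either IP lay below the lowest input library, while the IPs overlapped.

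ACTG1 averaged 2247 ± 155 CPM in ADAR3 IP, 2488 ± 347 CPM with pre-immune serum and 3471 ± 149 CPM in input (SD, n = 4 each). ACTB averaged 1858 ± 171, 2044 ± 313 and 2141 ± 102 CPM in the same groups. Of the 11112 genes, 31.7% had all 4 ADAR3 IP libraries below all input libraries, 29.3% had them all above, and 16.3% had all pre-immune libraries below all input libraries. ACTG1 was the only 1 of the 6 actin genes that lay below input in either comparison, so its place below input is a common one. ACTA2 and ACTG2 are not among the 11112 genes. The authors normalized the input table apart from the IP table, and levels in CPM were not tested across them.

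Between the IPs the cytoplasmic actins did not differ past the threshold. The log2 fold change, ADAR3 IP over pre-immune IP, was -0.21 for ACTB, with a 95% interval of -0.49 to 0.06 (limma adjusted p = 0.404), and -0.22 for ACTG1, with an interval of -0.50 to 0.06 (limma adjusted p = 0.389). The median over all tested genes was 0.25, so both lay below the typical gene, at -0.463 and -0.473 relative to it on the log2 scale. With TMM factors, another scaling of libraries, that median was 0.40 and the values were -0.07 and -0.08, and with library totals 0.34, -0.13 and -0.14. Relative to the median, ACTB lay at -0.207 with edgeR, -0.264 with DESeq2, -0.201 at equal depth and -0.658 with no filter, and ACTG1 at -0.22, -0.277, -0.233 and -0.668 in the same fits. Over 20 alternatives each, the adjusted p ranged from 0.229 to 0.774 for ACTB and from 0.151 to 0.747 for ACTG1.

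Of the 5 actin genes other than ACTA1, 3 met the minimum for testing, ACTC1 only through pre-immune IP. limma called 0 of them at an adjusted p under 0.05. At an unadjusted limma p under 0.05 there were 0 of them, against 1135 genes higher and 814 lower of all 11112. With no filter on low values, ACTB, ACTG1 and ACTC1 had an unadjusted limma p of 0.048, 0.037 and 0.040, all lower in ADAR3 IP. In that fit 4642 of 28556 genes were higher and 907 lower at this level, and 0 actin genes passed after adjustment. At the adjusted threshold the main fit called 2.33% of all 11112 genes higher and 1.74% lower in ADAR3 IP, or 259 and 193 genes. The share of higher genes among those called was 57.3%, against 77.5% with TMM factors and 69.5% with library totals. edgeR called 0 of the 4 actin genes it tested, against 6.9% of all genes higher and 1.69% lower. DESeq2 called 8.75% of all genes higher and 5.63% lower, and its call of ACTC1 is not read against these shares. ACTA1 was the only one of the 6 whose ADAR3 IP libraries all lay below the pre-immune ones, which held for 5.31% of genes, while the opposite order held for 10.7% of genes and for none of the 6. It was also the only one whose pre-immune libraries all lay above input, which held for 5.93%. These shares are over the 11112 genes that met the minimum, which leave out ACTA2 and ACTG2. ACTA1 was chosen for its high pre-immune level, so nothing is read from its order.

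The ratio of ACTB to ACTG1 reads within a library needs no scaling between libraries, and gene length cancels when groups are compared. ADAR3 IP replicates 1 to 4 had ratios of 0.797, 0.803, 0.863 and 0.843. Pre-immune replicates 1 to 4 had 0.755, 0.764, 0.908 and 0.864, and input replicates 1 to 4 had 0.624, 0.595, 0.634 and 0.616. Every library of both IPs lay above every input library, and the IPs overlapped. The means were 0.826 ± 0.0317 in ADAR3 IP, 0.823 ± 0.0752 with pre-immune serum and 0.617 ± 0.0165 in input (SD, n = 4 each). How many other gene pairs have ratios separated in this way was not computed. For single genes in CPM, such separation was common: 29.3% lay above and 31.7% below input in ADAR3 IP, 5.93% and 16.3% with pre-immune serum. The ratio also partly restates the CPM values, in which ACTG1 lay below input and ACTB overlapped with it.

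On the log2 scale the ratio was higher by 0.42 in ADAR3 IP than in input, with 4 of 4 libraries above every input library (two-sided exact permutation test, p = 0.0286, which is the lowest possible with 4 against 4). It was higher by 0.41 with pre-immune serum than in input, again with 4 of 4 libraries above every input library and an exact permutation p of 0.0286. After Benjamini-Hochberg adjustment over the 6 ratio comparisons made, both exact permutation p-values were 0.0857 and did not pass 0.05. ADAR3 IP and pre-immune IP differed by 0.0097, less than the SD in either group (exact permutation p = 0.943, adjusted p = 0.943). The IPs and input also differed in the RNA used for library preparation: per the labels' protocols 1 µg of total RNA went into each input library, and all RNA recovered into each IP library. The part of this in the ratio was not tested.

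**Figure D3:**
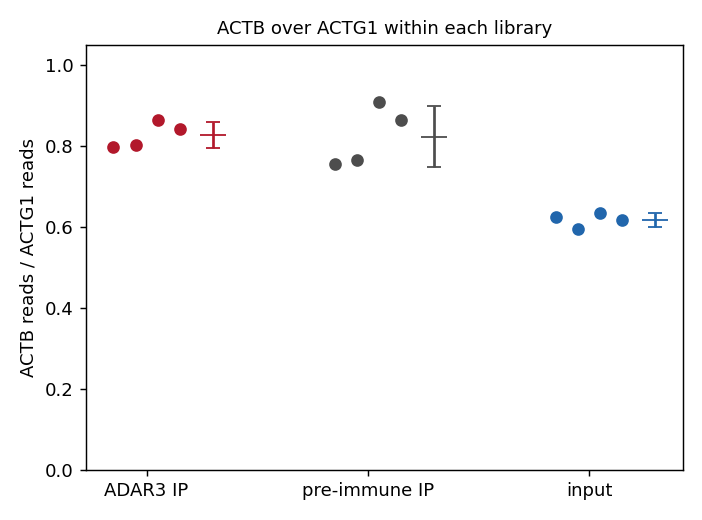
Ratio of ACTB to ACTG1 reads within each library (linear axis starting at 0) for ADAR3 IP, pre-immune IP and input. Points are libraries, and the bar beside them is the mean with its SD (n = 4). The IP libraries lie between 0.755 and 0.908 and the input libraries between 0.595 and 0.634.

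ACTA2 reads per 1000 reads of ACTB plus ACTG1 were 0.859 ± 0.309 in ADAR3 IP, 0.844 ± 0.985 with pre-immune serum and 0.659 ± 0.0814 in input (SD, n = 4 each). ADAR3 IP and input differed by 0.33 on the log2 scale, within their spread (exact permutation p = 0.257, adjusted p = 0.514). The pre-immune comparisons were made on the ratio itself, since 2 libraries held 0 reads. ADAR3 IP minus pre-immune IP was 0.0144 (exact permutation p = 0.943, adjusted p = 0.943), and pre-immune IP minus input 0.186 (exact permutation p = 0.657, adjusted p = 0.943).

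Among 21095 other genes with at least 20 reads, 2 IDs followed ACTA1 most closely over the 12 libraries, by Pearson correlation of log2(CPM + 1). These were ENSG00000198626, with an r of 0.972, and ENSG00000179915, with an r of 0.967. The points fall into 3 groups of libraries that also differ in depth, and ACTA1 overlaps between ADAR3 IP and input. These values therefore mainly describe the gap between pre-immune IP and the other libraries. ENSG00000198626 stood at 53.05 ± 10.8 CPM in ADAR3 IP, 269.6 ± 77.7 CPM with pre-immune serum and 41.0 ± 5.595 CPM in input (SD, n = 4 each). Its reads summed to 5879, 3564 and 1570 in these groups. ENSG00000179915 stood at 1.14 ± 0.839, 22.5 ± 6.02 and 0.713 ± 0.382 CPM in the same groups. Of the actin genes ACTC1 was most like ACTA1, with an r of 0.737 and rank 239, while ACTB had 0.0482, ACTG2 -0.202, ACTG1 -0.262 and ACTA2 -0.32. The value for ACTC1 also mainly describes that gap. Among pre-immune libraries ACTA1 was highest in replicate 2, at 53.6 CPM, and ACTC1 in replicate 4, at 26.7 CPM. With Spearman's measure 0 of the 10 most similar genes were shared with the 10 of the Pearson ranking, and with a pseudocount of 0.1 CPM 7 were.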

How the data were processed

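The deposited files are an IP table with 8 libraries and 28556 genes and an input table with 4 libraries and 28061 genes. The submitters' processing notes name STAR 2.7.7a, featureCounts, DESeq2 and GRCh38 but not what each did. The labels' protocols describe strand-specific libraries depleted of ribosomal RNA, while the molecule label reads polyA RNA. Which of these holds was not resolved. Annotation and strand setting of the counting were not found in those notes. Each deposited column is a signal in which the authors divided the gene counts of a library by its size factor. In each library 100% of values were multiples of what 1 read is worth (tolerance 0.001 reads), so reads and depth were recovered. The authors' log2 fold changes and p-values for ADAR3 IP over pre-immune IP were deposited in the first table.

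Libraries were grouped and numbered from their titles. limma 3.58.1 (R 4.3.3, variance trend) was fitted on log2(normalized count + 1) of the IP libraries for genes with a mean of at least 50, a minimum that an earlier analysis had set with the data in view, with Benjamini-Hochberg adjustment over all of them at 0.05. This was checked on simulated data. Within-library read ratios were compared with exact permutation tests (scipy 1.17.1). edgeR 4.0.16 and DESeq2 1.42.0 on recovered reads, other filters, pseudocounts and scalings, and left-out libraries were alternatives. The members and lists were chosen with earlier results of these data known. All 6 actin genes were to be named, with the 2 genes most like ACTA1 by Pearson correlation. No Ensembl ID (0) stands in the RefSeq table of 59792 genes, so the 7 pathway lists and 5 marker lists were not analysed here, and actin symbols are those given with the 6 IDs. Between the IPs, the deviations of libraries with the same replicate number had correlations from -0.0017 to 0.0236 over all tested genes, all under 0.1. With the wide spread of the pre-immune libraries, such low values cannot exclude pairing, and input was not examined for it. The ratio of ACTB to ACTG1 ranked the replicate numbers in the same order in both IPs.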

Additional observations from a re-analysis of the deposited data

Results flagged for a closer look

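Of the 21 sets of 4 libraries examined for the actin genes, 2 held a library far from the other 3 by Dixon's test. Both concern ACTG2, and in both the other 3 libraries held 0 reads, so that any single library with reads had to be marked. The chance rate of about 1 set in 20 does not apply to such counts. It stood at 0.414 CPM in ADAR3 IP replicate 1, from 12 reads, and at 0 in the other 3 ADAR3 IP libraries. It stood at 0.455 CPM in pre-immune IP replicate 3, from 2 reads, and at 0 in the other 3 pre-immune libraries, and the 95% counting intervals of the 4 overlap.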

How the results depend on the processing

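The cause of the shifts below was not tested. The number of actin genes called, 0, became 1 with DESeq2 (ACTC1, also the authors' deposited call) and was 0 under the other 19 alternatives. ACTB and ACTG1 kept their direction in all 20 alternatives and ACTC1 in the 18 run for it, all on the same libraries or part of them. For ACTC1, which met the minimum only through pre-immune IP, the direction is a description and is not counted as support. The 95% interval of each gene in the main fit included 0. Over all genes, 259 were called higher and 193 lower. The higher count became 1493 with no filter on low values, 659 at a minimum of 10, 450 with TMM factors, 998 with edgeR, 1571 with DESeq2, 142 with group variance weights and 156 at equal depth. The lower count became 1010 with DESeq2, 55 with group variance weights and 95 at equal depth. Leaving out 1 library gave 108 to 432 higher and 65 to 340 lower genes; the highest counts came without pre-immune replicate 4. The log2 ratio of mean ACTA1 CPM ranged from -7.61 to -6.38 without 1 library.

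For the ratios of ACTB to ACTG1, leaving out 1 library gave 0.40 to 0.44 for ADAR3 IP minus input and 0.36 to 0.45 for pre-immune IP minus input, with an exact permutation p of 0.0571 each time, the smallest that 4 against 3 can give. ADAR3 IP minus pre-immune IP had no stable direction, at -0.030 to 0.059. For ACTA2, leaving out 1 library gave -0.267 to 0.353 reads per 1000 for ADAR3 IP minus pre-immune IP, -0.153 to 0.467 for pre-immune IP minus input, and 0.11 to 0.49 on the log2 scale for ADAR3 IP minus input. With 0.5 read added to ACTA2, chosen after seeing the data, ADAR3 IP minus pre-immune IP was 1.905 and pre-immune IP minus input -1.59 on the log2 scale, with an exact permutation p of 0.429 each. With the replicate number as a block, the paired differences of ACTB to ACTG1 from input kept 0.42 and 0.41, with an exact sign-flip permutation p of 0.125, the smallest that 4 pairs can give. limma with the block called 263 higher and 140 lower genes, against 259 and 193 without it, and 0 actin genes. ACTA2 and ACTG2, and ACTA1 and ACTC1 outside pre-immune IP, are limited by reads.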
